A study of Mus musculus with 10 samples.

Results

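Of 351411 regions formed by merging every accessible-chromatin peak of 10 thymic epithelial libraries, 6814 carried a peak in all 10 lists and lay within 1 kb of an end of a protein-coding gene. These constitutive gene-boundary regions were chosen from the peak calls themselves, so their presence in every list is a description and not a finding. They made up 70.2% of the 9700 regions called in all 10 lists, the other 2886 lying farther from any gene end. Together they touched an end of 7884 of 21887 protein-coding genes of the RefSeq annotation of the mouse build GRCm38.p6 (mm10), which is 36% of the genes.

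Transcription start regions of widely expressed genes are kept free of nucleosomes in most cell types, because the transcription machinery and the factors that recruit it occupy them, and many lie in CpG islands. Genes used in one lineage more often depend on enhancers and open their start regions only in that lineage. The thymic epithelium is the stroma that attracts blood-borne progenitors and educates T cells, its cortical part supporting early development and its medullary part displaying self-antigens under the control of Aire. Its identity depends on the transcription factor Foxn1, which recognises sites with the core GACGC.

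The libraries were made by ATAC-seq, a method that tags open chromatin with a transposase, from sorted TEC (thymic epithelial cells), all from wild-type mice of strain C57BL/6, and per the labels the deposited lists describe nucleosome-free chromatin. There were 5 groups of 2 libraries: E15 and E17, for embryonic days 15 and 17, and the fractions of day 6 animals labelled mTEC4, mTEC1 and mTEC2, whose names are not spelled out in the labels. Thymus tissue of every group was dissociated with Liberase TH and DNase, and no allele or agent separated the groups, so that age and sorted fraction are the only labelled differences. The embryonic labels name no fraction, so age and the kind of cell sorted cannot be told apart between embryonic and day 6 libraries. The labels do not say whether the libraries of a group came from separate animals, so p-values measure the spread between these libraries, which may be technical. In sorted bulk samples, a site open in fewer cells and a site less often open in each cell cannot be told apart. The lists held between 40858 (mTEC2 replicate 2) and 151646 peaks (E17 replicate 2) and no read counts, so depth is unknown, and where a list lacks a peak no more is known than that the caller made none.

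Promoter windows from RefSeq (GRCm38.p6), running from 250 bases before to 50 bases after a start, were on hand for 17492 genes, and 6865 of 21263 such windows (32.3%) met a member region. The 8 windows below, written 5′ to 3′ on the strand of the gene, show the kinds of boundary that the results turn on. Capitals mark matches on either strand to the letters CCAAT (the NF-Y box), GGGCGG (the GC box of Sp factors), CCGGAAG (the ETS site), GACGC (the FOXN1 core), CACGTG (an E-box), AAGATGGC (the YY1 site) and TATAAA (the TATA box). A match is a description of the letters and not evidence of binding. Iars (chr13:49681880-49682179, plus strand), for cytosolic isoleucyl-tRNA synthetase, is shown for a boundary of high rank with 2 NF-Y box matches. Rpl15 (chr14:18270937-18271236, minus strand), for a protein of the large ribosomal subunit, belongs to a region shared with Nkiras1. Ccl25 (chr8:4324960-4325259, plus strand), for the chemokine that draws progenitors into the thymus, shares its region with Elavl1, for an RNA-binding protein. Rbl1 (chr2:157204485-157204784, minus strand), for the retinoblastoma relative p107, is among the 5 members of lowest rank. Krt8 (chr15:102004293-102004592, minus strand), for keratin 8 of simple epithelia, ranked higher in embryonic libraries. Eif4e (chr3:138527018-138527317, plus strand), for the mRNA cap-binding protein, ranked lower there. H2bc8 (chr13:23571150-23571449, plus strand), for a replication-dependent histone H2B, shares with H2ac8 a region that was lower in embryonic libraries. Gm13287 (chr4:88803004-88803303, plus strand) stands for a block of repeated genes with near-maximal ranks.
Iars: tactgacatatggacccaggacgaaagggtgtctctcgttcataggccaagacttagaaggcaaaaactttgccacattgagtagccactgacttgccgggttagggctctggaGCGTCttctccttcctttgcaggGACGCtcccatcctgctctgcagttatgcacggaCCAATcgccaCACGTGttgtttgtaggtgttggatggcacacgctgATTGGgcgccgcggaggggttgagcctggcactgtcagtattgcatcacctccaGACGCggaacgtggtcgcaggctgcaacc
Rpl15: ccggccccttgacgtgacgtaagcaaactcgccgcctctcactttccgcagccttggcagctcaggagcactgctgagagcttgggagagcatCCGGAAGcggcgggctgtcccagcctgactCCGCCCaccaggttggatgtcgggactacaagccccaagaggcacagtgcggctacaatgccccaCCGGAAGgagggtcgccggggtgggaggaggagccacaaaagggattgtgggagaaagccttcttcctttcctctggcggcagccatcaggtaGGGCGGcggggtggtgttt
Ccl25: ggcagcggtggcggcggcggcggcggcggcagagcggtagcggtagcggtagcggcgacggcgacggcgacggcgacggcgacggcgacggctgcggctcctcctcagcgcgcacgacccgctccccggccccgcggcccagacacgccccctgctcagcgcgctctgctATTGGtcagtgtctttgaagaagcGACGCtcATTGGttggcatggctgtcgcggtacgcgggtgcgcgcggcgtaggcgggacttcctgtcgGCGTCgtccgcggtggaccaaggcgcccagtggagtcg
Rbl1: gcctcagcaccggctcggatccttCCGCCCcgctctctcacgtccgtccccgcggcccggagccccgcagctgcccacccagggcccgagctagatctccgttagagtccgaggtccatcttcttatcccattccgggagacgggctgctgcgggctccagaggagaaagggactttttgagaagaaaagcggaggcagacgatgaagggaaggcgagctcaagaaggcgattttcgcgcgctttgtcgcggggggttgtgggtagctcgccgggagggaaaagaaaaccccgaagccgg
Krt8: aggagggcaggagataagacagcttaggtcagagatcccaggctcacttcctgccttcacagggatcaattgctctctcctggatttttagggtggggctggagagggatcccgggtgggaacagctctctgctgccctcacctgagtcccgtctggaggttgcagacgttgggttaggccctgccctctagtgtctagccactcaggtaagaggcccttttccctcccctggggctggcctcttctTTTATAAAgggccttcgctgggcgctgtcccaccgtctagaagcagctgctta
Eif4e: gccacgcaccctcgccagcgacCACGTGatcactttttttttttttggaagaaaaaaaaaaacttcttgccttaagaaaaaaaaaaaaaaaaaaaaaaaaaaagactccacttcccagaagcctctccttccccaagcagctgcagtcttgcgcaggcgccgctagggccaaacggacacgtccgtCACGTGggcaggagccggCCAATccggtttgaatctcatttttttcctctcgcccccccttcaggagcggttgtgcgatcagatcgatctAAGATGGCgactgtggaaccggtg
H2bc8: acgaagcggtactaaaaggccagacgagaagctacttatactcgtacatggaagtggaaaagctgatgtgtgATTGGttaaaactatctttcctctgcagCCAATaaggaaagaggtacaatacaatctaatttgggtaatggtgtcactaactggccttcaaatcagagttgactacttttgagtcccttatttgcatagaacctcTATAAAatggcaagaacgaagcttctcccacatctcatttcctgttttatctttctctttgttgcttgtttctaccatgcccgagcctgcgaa
Gm13287: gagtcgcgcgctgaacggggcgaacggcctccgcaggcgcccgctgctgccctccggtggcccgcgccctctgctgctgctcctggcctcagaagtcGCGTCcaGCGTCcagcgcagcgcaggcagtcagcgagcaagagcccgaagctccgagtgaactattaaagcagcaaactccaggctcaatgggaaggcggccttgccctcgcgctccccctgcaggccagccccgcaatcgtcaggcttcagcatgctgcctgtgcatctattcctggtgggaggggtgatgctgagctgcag

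The share of merged regions at a gene boundary rose with the number of lists that called them. It was 2.52% of regions called in 1 list, 7.78% in 5 lists, 23.6% in 8 lists, 37.5% in 9 lists and 70.2% in all 10. Boundary regions also widened along this series, from a median of 98 bp in 1 list to 879 bp in 10, while regions elsewhere widened from 98 to 590 bp. Widths of the members ran from 126 to 3392 bp, with the middle 50% between 663 and 1134 bp, and together they covered 6.31 Mb. The merging of peaks sets part of this, because a region called in more lists is a union of more peaks. Just outside the requirement of 10 lists stood 1636 boundary regions called in 9, with a median width of 781 bp. The missing list was mTEC4 replicate 1 for 776 of them (47.4%) and mTEC2 replicate 2 for 503 (30.7%), and these were the 2 shortest lists (70144 and 40858 peaks). It was mTEC1 replicate 1, with 82281 peaks, for 266 (16.3%). For mTEC4 replicate 2 (71192 peaks) and mTEC1 replicate 2 (71327 peaks) the counts were 46 and 34. A part of list length in these counts was not tested. At the distance limit, the 270 members more than 500 bp from a gene end had a median width of 766 bp, and the 206 regions called in all lists that lay beyond 1 kb but within 1500 bp had one of 752 bp.

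**Figure D1:**
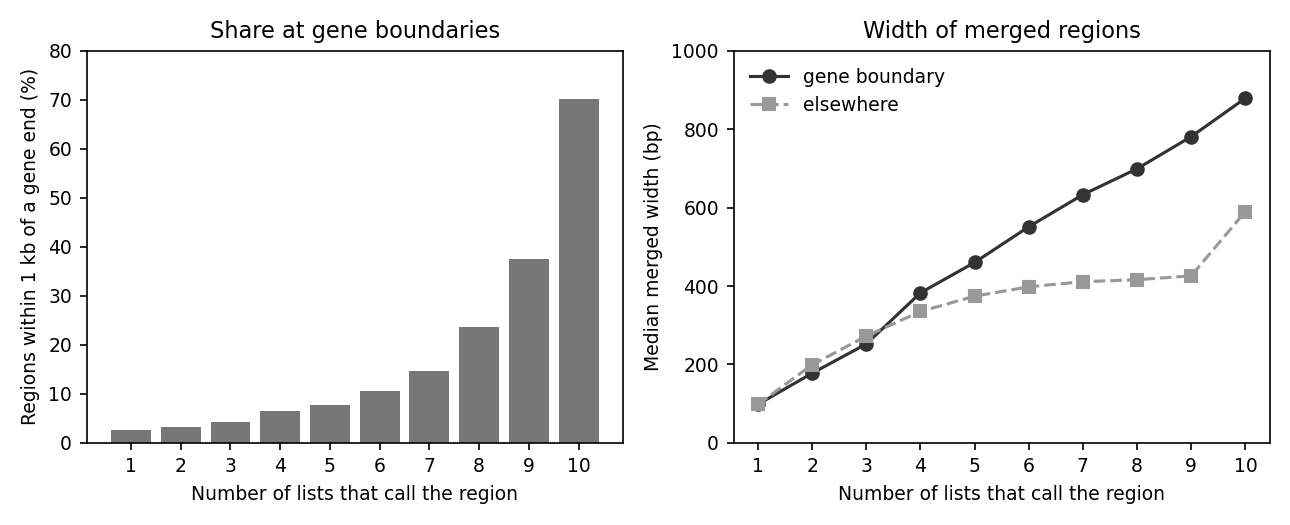
Left, percent of merged regions within 1 kb of a gene end (y) against the number of lists that call them (x), rising from 2.52% to 70.2%; right, median merged width in bp (y) at gene boundaries and elsewhere against the same count, reaching 879 and 590 bp.

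Within each list the members were called with less sequence at day 6 than in the embryo. The median called sequence per member was 640 and 639.5 bp in the E15 libraries and 677 and 771.5 bp in the E17 libraries. At day 6 it was 248 and 345 bp in mTEC4, 298 and 336 bp in mTEC1, and 375 and 236 bp in mTEC2. Every embryonic library lay above every day 6 library, with means of 682 ± 62.2 bp (SD, n = 4) and 306 ± 55.7 bp (SD, n = 6). Peaks as such were also narrower at day 6, with a median of 106 to 135 bp against 185 to 200 bp in the embryo, and a part of list quality in the difference was not tested. Members held 6.88% ± 1.54 (SD, n = 4) of the peaks of the embryonic lists and 10.9% ± 3.55 (SD, n = 6) of those at day 6. In every library, between 89.8% and 95.6% of members were met by a single peak.

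Most members held a gene's end, and where the strand was known that end was nearly always the transcription start. A gene end lay inside 6141 members (90.1%), within 500 bp of 403 more and farther off for the remaining 270. Strand was known for 17492 genes through the promoter windows. By that measure 5065 members (74.3%) met starts only, 346 a start and the other end of a gene, and 85 (1.25%) the other end only, while 1103 (16.2%) lay at genes of unknown strand. Counted by gene, 6298 of the 17492 (36.0%) had a member at the start, 523 (2.99%) at the other end and 315 at both. Among 4415 members at the start of a single gene, 3981 (90.2%) held the start itself. All 4415 together were centred a median of 126.5 bp downstream of the start. Those that held it reached medians of 299 bp upstream and 526 bp downstream. Ends of non-coding genes lay at 811 members (11.9%), of which 707 held an lncRNA end, 39 a miRNA end and 25 a tRNA end.

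A boundary was shared by 2 genes in 1280 members (18.8%) and by 3 genes in 36, while 5498 members (80.7%) served 1 gene. The commonest arrangement was the divergent pair, in which 2 genes start back to back on opposite strands and can share a promoter region, with 715 of the 1280 (55.9%). In 231 a start met the other end of a neighbour, in 23 both starts lay on 1 strand, in 8 only the far ends of 2 genes met, and in 303 a strand was unknown. Divergent members were wider than the 8 with far ends only, with medians of 964 and 495 bp, and ranked higher, with median percentiles of 54.0 and 37.8, on the scale explained further on. For members at 1 gene these medians were 873 bp and 50.4. In 458 divergent pairs the genes did not overlap and their starts lay a median of 107.5 bp apart. Of 1158 genes with a divergent start within 1 kb, 930 (80.3%) had a member at the start, against 5368 of 16334 (32.9%) without such a neighbour. A member counts for every start within 1 kb, so 1 region can be credited to both genes of a pair. The way of counting can thus raise the first share. Shared members of highest rank served Gm40364 and Gm40363, Dlg2 and Tmem126b, Ap2a1 and Tsks, Nkiras1 and Rpl15, and Ltn1 and Rwdd2b. The Nkiras1 and Rpl15 region (chr14:18270677-18271437, 761 bp), whose Rpl15 window is printed above, stood at percentiles of 97.4 and 98.0 at E15, 97.0 and 96.9 at E17, 83.8 and 96.8 in mTEC4, 93.0 and 94.6 in mTEC1, and 95.4 and 96.0 in mTEC2. All libraries overlapped near the top except mTEC4 replicate 1, which was the lowest.

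Genes for basic cell functions had members at their ends more often than genes of restricted lineages. Over all protein-coding genes the share was 36.0%. It was 56 of 62 replication-dependent histone genes (90.3%), 30 of 37 aminoacyl-tRNA synthetases (81.1%), which charge tRNAs, 65 of 81 splicing and RNA-binding proteins (80.2%), and 31 of 39 DNA replication factors (79.5%). Translation initiation factors followed with 44 of 56 (78.6%), cytosolic ribosomal proteins with 68 of 88 (77.3%) and a list of housekeeping reference genes with 15 of 19 (78.9%). Chaperones (55 of 78, 70.5%), oxidative phosphorylation subunits (60 of 86, 69.8%), proteasome subunits (30 of 44, 68.2%), RNA polymerase, general factor and Mediator subunits (66 of 97, 68.0%) and ubiquitin enzymes (60 of 89, 67.4%) were next. Mitochondrial ribosomal proteins reached 46 of 78 (59.0%), below their cytosolic counterparts. Zinc finger genes named Zfp, Zkscan or Zscan, many of which encode repressors of transposable elements, reached 213 of 424 (50.2%). Solute carriers, a large family of membrane transporters, were near the overall share with 130 of 375 (34.7%). The 56 histone genes were met by 41 members, as 1 region can count for several neighbouring genes. The part of this counting in their share was not tested. When a call needed peaks over at least 50% of a region, initiation factors (1.79%), proteasome subunits (2.27%) and polymerase and Mediator subunits (2.06%) fell below the 2.88% of all genes, so for these classes the order depends on how a call is counted.

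**Figure D2:**
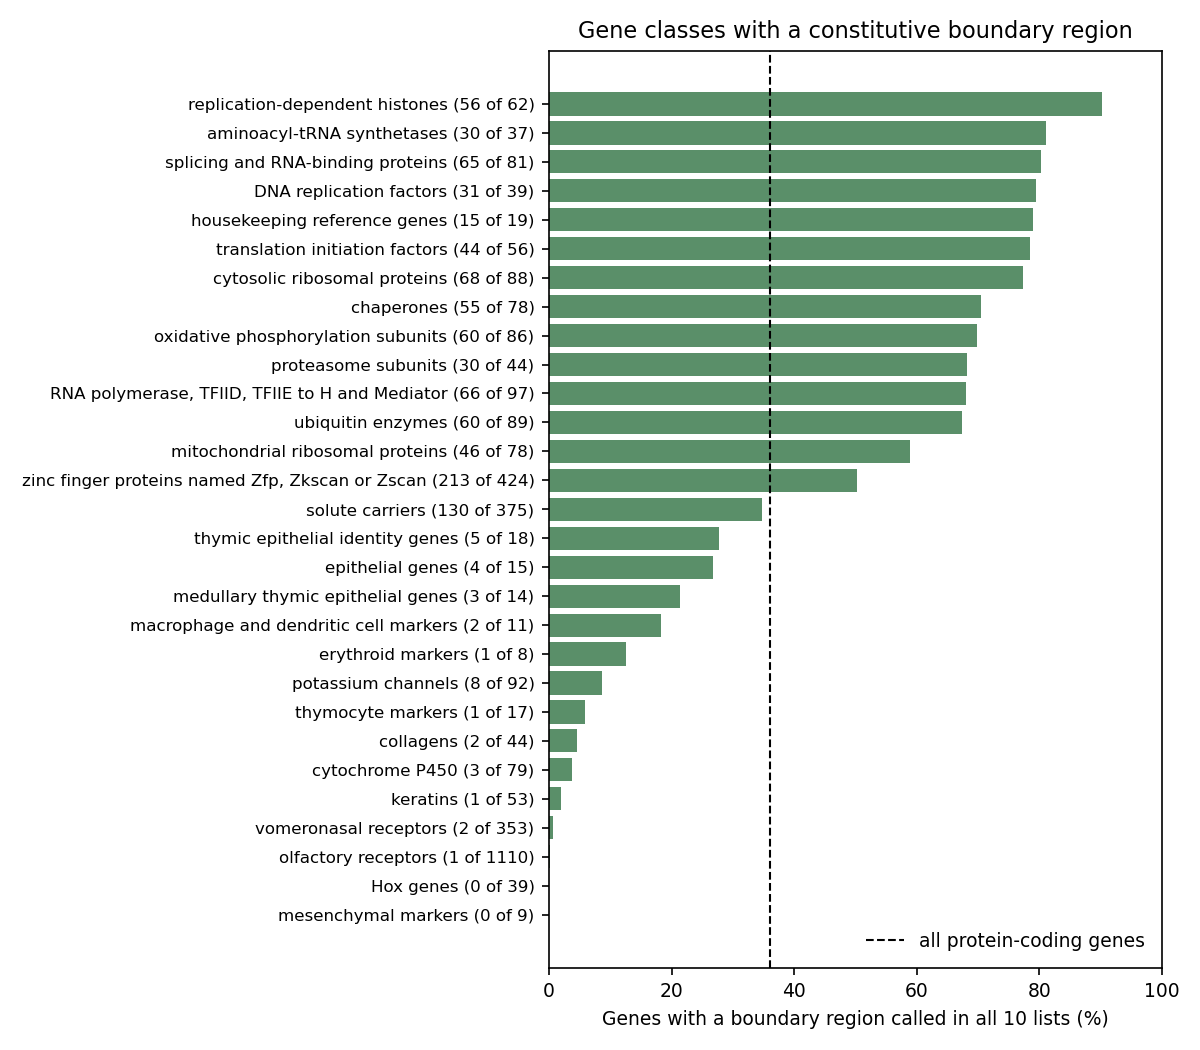
Percent of the genes in each class with a boundary region called in all 10 lists (x) by class (y), counts in parentheses; the dashed line is the 36.0% of all protein-coding genes, and classes run from 90.3% for replication-dependent histones to 0 for Hox genes.

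At the other extreme stood families expressed in few cell types. Members lay at 8 of 92 potassium channels (8.70%), 2 of 44 collagens (4.55%), 3 of 79 cytochrome P450 genes, 1 of 53 keratins, 2 of 353 vomeronasal receptors, 1 of 1110 olfactory receptors and 0 of 39 Hox genes. The single olfactory receptor was Olfr1033 and the single keratin Krt8. The vomeronasal genes were Vmn2r29 and Vmn1r4, the latter at a region shared with Nt5c3, for a nucleotidase. Across chromosomes the share of genes ran from 30.2% on chromosome 7 to 43.2% on chromosome 12 among autosomes, and was 18.1% (175 of 966) on X and 0 of 256 on Y.

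Most defining genes of the thymic epithelium were not among these regions. Members lay at 5 of 18 thymic epithelial identity genes (27.8%), 3 of 14 medullary genes (21.4%) and 4 of 15 epithelial genes (26.7%), each below the 36.0% of all genes. With 2 kb around gene ends, identity genes (38.9%) and epithelial genes (40%) were above the 38.2% of all genes. Without mTEC2 replicate 2 epithelial genes reached 40%, against 38.4% of all genes, and without mTEC4 replicate 1 medullary genes rose to 35.7%, against 39.7%. These shares of 14 to 18 genes thus rest on few regions. The best-covered boundary region of Foxn1 was called in 4 lists, all 4 embryonic libraries and none of day 6. That of Psmb11, the catalytic subunit of the cortical thymoproteasome, was called in 7 lists, that of Prss16, a cortical serine protease, in 5, and that of Trp63, the regulator of stratified epithelia, in 3. Aire was called in 9 lists and missed in mTEC1 replicate 1, and Pax1 in 9, missed in mTEC1 replicate 2. Ccl21a, a medullary chemokine, was called in 5 lists, Pax9 in 1 and the cytoskeletal reference gene Actb in 1. The counted regions of Ccl21a and Pax9 lay at the far end of the gene. For Prss16, Trp63 and Actb the strand was unknown, so which end was counted cannot be told. Epcam, the surface marker by which epithelial cells are commonly sorted, was a member (chr17:87635674-87637323, 1650 bp) of low rank, between 6.29 and 37.5 over the libraries. Its values overlapped between embryonic and day 6 libraries.

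Markers of other cells were mostly outside the set as well. Members lay at 1 of 17 thymocyte markers, 2 of 11 macrophage and dendritic markers, 1 of 6 B cell markers, 1 of 8 erythroid markers, 0 of 6 endothelial and 0 of 9 mesenchymal markers. The pan-leukocyte gene Ptprc was called in 0 lists at a boundary and Cd3e of the T cell receptor complex in 2 (both mTEC2 libraries). The endothelial cadherin Cdh5, a gene of unknown strand here, was called in 1. The mesenchymal receptor Pdgfra was called in 4, all 4 embryonic libraries and none of day 6. The thymocyte member was Tcf7, for the factor TCF1, which had percentiles of 3.10 and 1.29 at E15, 2.10 and 0.593 at E17, 21.7 and 3.48 in mTEC4, 1.81 and 3.95 in mTEC1, and 3.93 and 7.88 in mTEC2. It was among the weakest constitutive boundaries in every library except mTEC4 replicate 1. Other marker members served Xcr1 (shared with Fyco1), Ebf1 and Klf1. A part of such cells in the values of other genes was not tested.

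To compare libraries, each region was given the percentile of its strongest −log10 q, the authors' peak significance, among the 9700 regions called in all 10 lists, from 0 (weakest) to 100 (strongest). By this rank the members stood above the constitutive regions elsewhere in 8 libraries and below them in both E17 libraries. Median percentiles of members and of the other regions were 52.0 and 45.3 in E15 replicate 1, and 51.7 and 45.4 in E15 replicate 2. They were 48.6 and 54.6 in E17 replicate 1, and 48.1 and 56.0 in replicate 2. At day 6 the members' medians were 53.3 and 54.4 in mTEC4, 53.8 and 53.2 in mTEC1, and 52.5 and 50.9 in mTEC2. The gap was widest in mTEC4 replicate 2, at 16.4 percentile points, and narrowest at day 6 in mTEC2 replicate 2, at 4.06 points. Against all peaks of the same list, between 25.3% (mTEC2 replicate 2) and 72.9% (mTEC2 replicate 1) of members were in the uppermost 10%. Across the members, ranks of paired libraries had Spearman correlations of 0.855 to 0.894 within an embryonic group, 0.593 to 0.663 within a day 6 group and 0.428 to 0.684 across ages. These are descriptions over 6814 regions of shared libraries.

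**Figure D3:**
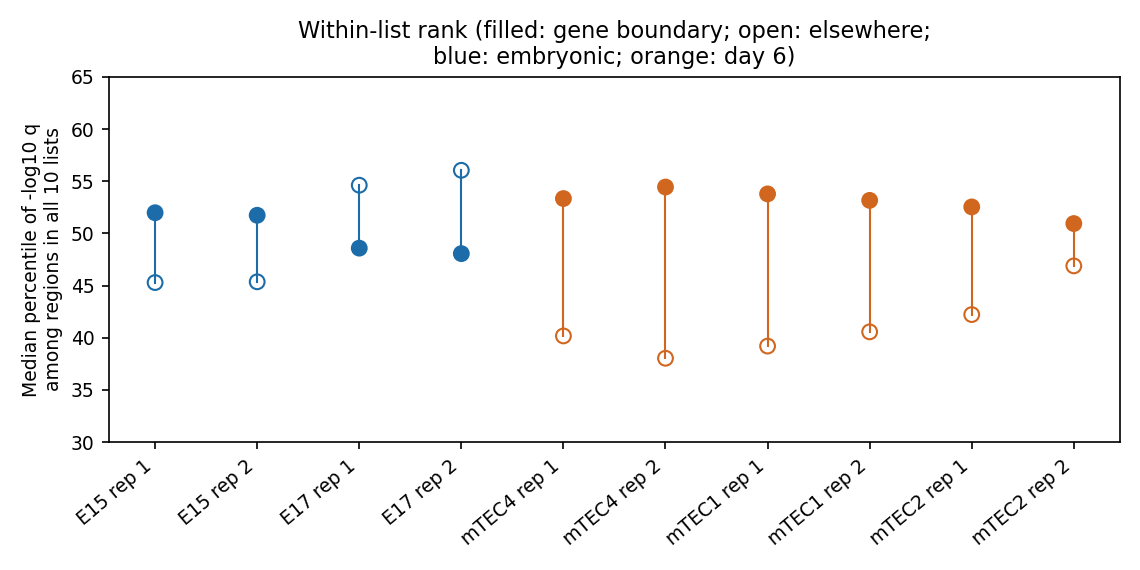
Median percentile of −log10 q (y) of boundary regions (filled) and of other regions called in all lists (open) in each library (x), blue for embryonic and orange for day 6; the order turns round in E17, 48.6 against 54.6 and 48.1 against 56.0.

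The strongest members were few and in part repeated in sequence. Highest of all by mean percentile was a 274 bp region 740 bp from the far end of Wls, for the carrier that secretes Wnt proteins (chr3:159939406-159939679). Its percentiles were between 98.9 and 99.5 in the embryonic and between 99.8 and 99.9 in the day 6 libraries. Next came regions of 387 bp near the far end of Lars2, for mitochondrial leucyl-tRNA synthetase (mean percentile 99.4), and of 265 bp near the start of Sspn, for sarcospan (99.4). No list of places with artificially high signal was at hand. Whether the Wls, Lars2 and Sspn regions are such places was not tested, so their ranks are uncertain. The other 7 of the 10 highest, Gm13290, Gm13288, Gm13287, Gm13272, Gm13276, Ifnz (interferon zeta) and Gm13285, lay in 1 block on chromosome 4 (chr4:88760474-88806534), which held 13 of the 100 highest members. Gm13287 had percentiles of 99.1 and 99.2 at E15, 98.6 and 99.1 at E17, 97.8 and 98.4 in mTEC4, 98.1 and 99.0 in mTEC1, and 98.8 and 98.5 in mTEC2. The groups overlapped and all 10 libraries were within the uppermost 3% of regions. Its printed window had 0 differences over 300 bases from that of Gm13285. Reads from such copies may match several places, and how these were handled is not given, so their ranks are uncertain. A second block on chromosome 6 (chr6:47663540-47681849) with Gm40364 and Gm40363 held 4 of the 100 highest.

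At the weak end the members of lowest mean percentile served Phactr2 (2.45), a regulator of actin and phosphatase, Arid1b (2.79), a subunit of the BAF chromatin remodeller, Acbd6 (4.29), Hes7 with Aloxe3 (4.44) and Rbl1 (4.78). The Rbl1 region stood between 0.716 and 3.61 in the embryonic and between 4.77 and 9.51 at day 6, so the ages did not overlap although the difference did not pass limma's threshold (adjusted p = 0.471). They were between 866 and 1513 bp wide. The widest members of all, at Gm20783 with LOC108167694 (3392 bp), Hspa1b (2817 bp), a stress-induced chaperone, Tubb2b (2729 bp), a tubulin, Phf21a (2726 bp) and Fnbp1l (2614 bp), had mean percentiles between 18.1 and 57.8. The narrowest, at Gm4631 (126 bp), Gm21814 (127 bp) and Tmbim1 (134 bp), lay near far ends. Wider members thus did not rank higher, and over 5370 members with a promoter window the Spearman correlation of width with percentile was between -0.383 and -0.227 in embryonic libraries and between -0.0770 and -0.0172 at day 6.

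Among classes with 30 or more members, DNA replication factors had the highest median rank. Their 33 members had a median mean percentile of 65.5, against 50.8 over all members, and only the 2 macrophage and dendritic marker members had a higher median (71.7). The 2 highest were Gins4 (93.7) and Mcm3 (92.2), for parts of the replicative helicase. Median values were 56.8 for aminoacyl-tRNA synthetases, 54.6 for oxidative phosphorylation, 50.6 for cytosolic ribosomal proteins, 47.1 for mitochondrial ribosomal proteins and 44.1 for histones. The ubiquitin-activating enzyme gene Uba6 (96.6), Mrps14 of the mitochondrial ribosome (94.5) and Ndufa6 of respiratory complex I (94.1) were the highest members of their classes. Uba6 lay between 94.1 and 97.7 in all 10 libraries, and its ages overlapped. Members at thymic identity genes had a median of 39.6, their 2 highest being the Ccl25 and Elavl1 region (78.8) and Ctsl (66.7), for the cortical protease cathepsin L.

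Windows meeting a member differed in sequence from windows at large, in a way the choice of members did not use. Windows meeting a member had a median GC content of 63.3% and an observed to expected CpG ratio of 0.83, against 56.3% and 0.567 over all windows and 46.7% and 0.182 for windows that met no region in any list. All windows include those of members. The 6973 windows that met a region outside the set, and no member, stood between, at 59.7% and 0.638. The share of windows that met a member was 0.830% where the CpG ratio was below 0.2 and 68.4% where it was above 1.0. The GC box GGGCGG was in 74.1% of member windows, 46.2% of all windows and 10.5% of windows without a region. For the ETS site CCGGAAG the shares were 22.7%, 11.6% and 2.22%. In windows that met a region outside the set the shares were 56.8% for GGGCGG, 10.6% for CCGGAAG and 38.4% for GACGC. The NRF1 site GCATGCGC (6.55% and 3.52%), the cAMP response element TGACGTCA (4.01% and 2.23%), AAGATGGC (5.68% and 3.05%), CACGTG (11.3% and 7.84%), CTCGCGAGA (2.29% and 0.964%) and CTACAATTC (0.889% and 0.489%) were likewise in more member windows than windows at large. So was GACGC (54.4% and 33.4%), which has a CpG of its own. The order was opposite for TATAAA (4.95% and 12.6%) and for TGANTCA, the AP-1 site (3.26% and 6.99%). All 12 motifs were searched on both strands of the 300-base windows, and base composition differs between the sets of windows, with its part not tested. Windows at divergent members held CCGGAAG in 28.0% and AAGATGGC in 8.18%, against 20.4% and 5.09% at members of 1 gene.

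Within the members, the NF-Y box CCAAT had the largest difference in rank of the 12 motifs. It was in 64.9% of windows of the 25% of members with the highest mean percentile and 25.04% of windows of the lowest 25%, against 43.3% of member windows and 38.2% of all windows. Members with a match had a median percentile of 61.6 (2502 members) and those without 43.4 (2868 members). The difference between them was positive in all 10 libraries, from 14.5 points in mTEC2 replicate 2 to 25.7 in E15 replicate 1. Matches were also counted in 1 window per region, that of lowest coordinate, and the median rose with their number. It went from 43.9 with 0 (3020 members) to 54.2 with 1 (1252), 66.9 with 2 (681), 72.9 with 3 (268) and 77.4 with 4 or more (149). Members counted with 0 in this way can hold a match in another window. The median GC content was 63.0% in the highest set and 64.7% in the lowest. Matches lay a median of 86 bases before the start in the highest set, with 43.4% of them 120 to 40 bases before it, against 39.7% over all windows. CTACAATTC went with higher ranks too (66.9 against 51.9) but was in 52 members only, and GACGC did not (52.2 against 52.0). The printed Iars window has 2 CCAAT matches and its region stood between 84.5 and 96.4 in all libraries, while the Rbl1 window has none.

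**Figure D4:**
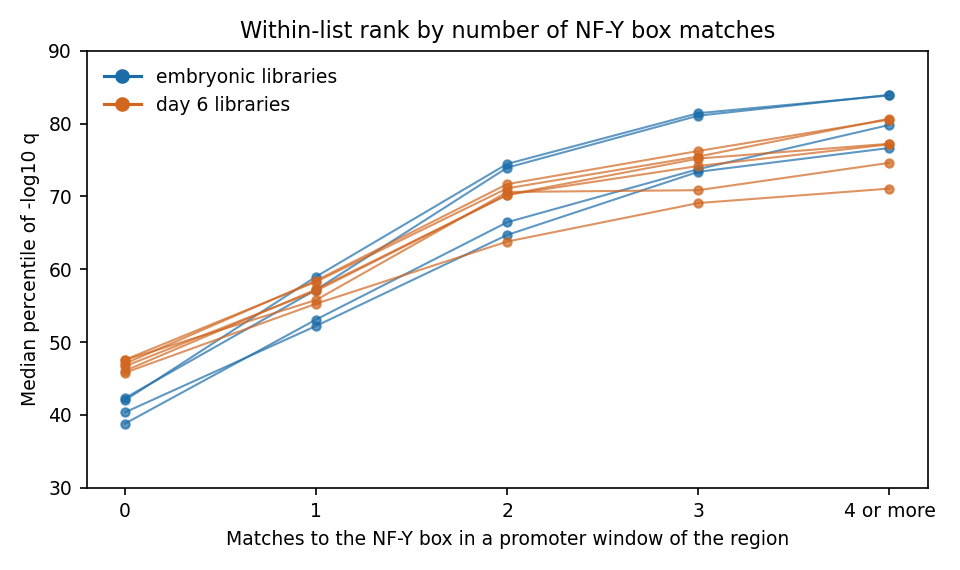
Median percentile of −log10 q (y) of members by the number of NF-Y box matches in 1 promoter window per region, that of lowest coordinate (x), 1 line per library. In every library the median is highest at 4 or more matches, and for the mean percentile over libraries it goes from 43.9 to 77.4.

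The ranks of 834 members differed between embryonic and day 6 libraries by limma with Benjamini-Hochberg adjustment over all 9700 regions (threshold 0.05). Of these 352 (5.17%) were higher in the embryo and 482 (7.07%) lower, where the background over all regions tested was 8.08 and 7.04 percent. The lower share of members is thus near the background, and the higher share is below it, with 15.0% of the 2886 other regions higher in the embryo. Embryonic and day 6 libraries did not overlap at 336 members higher in the embryo (4.93%) and 381 lower (5.59%), where the background over all 9700 regions was 6.41 and 6.7 percent, so that both shares were below it. Of these members 203 were called higher, 272 called lower and 242 did not pass. Higher members were narrower (median 632.5 bp) than lower ones (1124 bp), and their windows had less GC (58.7% against 66.7%). In embryonic libraries rank fell with GC content (Spearman correlation -0.212 to -0.0954) and at day 6 it did not follow it (-0.0300 to 0.0283), so composition, width and age move together, and their parts in the calls were not tested. The count depended on single embryonic libraries, falling to 150 without E15 replicate 1, 145 without E15 replicate 2, 211 without E17 replicate 1 and 139 without E17 replicate 2, while all 834 kept their sign. With percentiles taken among all peaks of each list instead, 13 members passed, 1 higher and 12 lower, and of 37 named members called by rank among the 9700 regions 3, among them Rab3ip and Syap1, kept their call.

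Largest of the increases was a 265 bp region 859 bp from the far end of Cdc25a, for a phosphatase that drives entry into S phase (chr9:109894754-109895018). It had percentiles of 87.4 and 78.1 at E15, 94.1 and 95.3 at E17, 1.86 and 18.5 in mTEC4, 4.05 and 4.08 in mTEC1, and 19.4 and 50.9 in mTEC2. All embryonic libraries stood above all day 6 libraries, by 72.3 points on average (SE 7.18, limma adjusted p = 0.00327). Krt8 (chr15:102003852-102004562), whose window is printed above, had percentiles of 76.4 and 77.3 at E15, 93.5 and 93.8 at E17, 35.7 and 7.04 in mTEC4, 22.3 and 42.7 in mTEC1, and 16.7 and 33.0 in mTEC2. Again the ages did not overlap, the difference being 59.0 points (SE 7.47, adjusted p = 0.00594). Its window has 58% GC, a CpG ratio of 0.24 and overlapping TATA box matches, unlike most members. The other 8 of the 10 largest increases, from 67.0 to 57.5 points, were at AA986860, Ccdc32, Crybg1, Ankrd45, Alpk1, Tcaf2, Cdh16 (a cadherin) and Zfp939, and in each all 4 embryonic libraries stood above all 6 of day 6. Among these 10, Crybg1 and Cdh16 lost the call without any single embryonic library (adjusted p up to 0.0895 and 0.0668) and Zfp939 without E15 replicate 2 or E17 replicate 2 (up to 0.0593).

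Among the decreases, Map2k4, for a kinase that activates JNK, had the largest (chr11:65787469-65788483). Its percentiles were 49.3 and 28.3 at E15, 24.5 and 31.1 at E17, 91.6 and 95.5 in mTEC4, 93.9 and 84.0 in mTEC1, and 93.8 and 88.0 in mTEC2. Every embryonic library was below every day 6 library, by 57.9 points on average (difference -57.9, SE 5.55, limma adjusted p = 0.00327). Eif4e (chr3:138526270-138528120, 1851 bp) stood between 5.39 and 33.2 in the embryo and between 57.4 and 88.3 at day 6, a difference of -56.9 points (adjusted p = 0.00882). Tdrd3, Syap1, Ccl27b, Snx13, Rybp (a Polycomb subunit), Rab3ip and the region of D6Wsu163e with Rad51ap1 were also among the 10 largest, with differences from -56.9 to -53.3, and their ages did not overlap either. Without E17 replicate 2 Eif4e and Rab3ip reached adjusted p-values of 0.0505 and 0.0504. The calls at Snx13 (up to 0.130) and at D6Wsu163e with Rad51ap1 (up to 0.0912) were lost without any single embryonic library, and at Snx13 also without mTEC4 replicate 1 or either mTEC2 library.

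**Figure D5:**
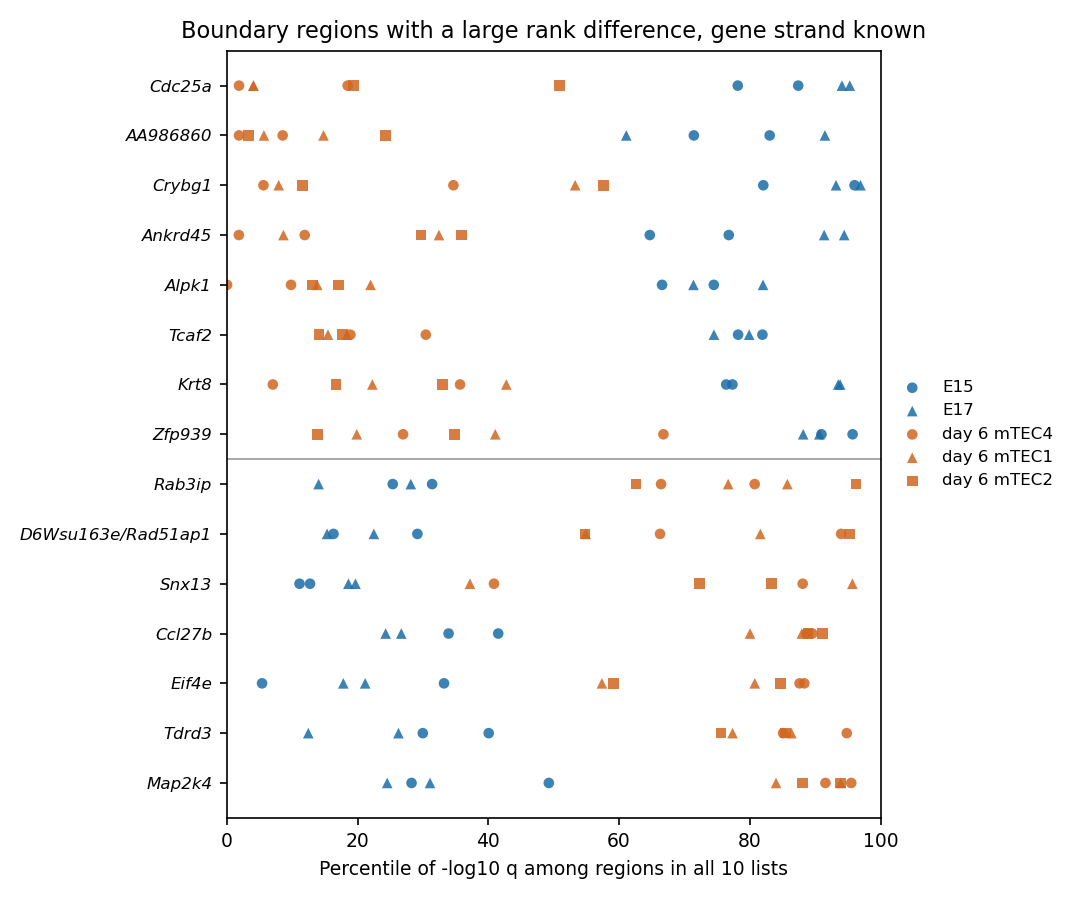
Percentile of −log10 q (x) in each of the 10 libraries for those of the 10 largest increases (8 members) and decreases (7 members) in embryonic libraries whose genes have a known strand (y); blue points (embryonic) and orange points (day 6) do not overlap in any of the 15.

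By gene group, the calls fell on few members of each class. Beside the background of 8.08 percent higher and 7.04 percent lower over all 9700 regions, each class of 30 or more members had a higher share below it (0% to 6.70%). The lower share passed the background in chaperones, ubiquitin enzymes, oxidative phosphorylation, histones, solute carriers and, by little, zinc finger genes (7.66%), and lay below it in the rest of these classes. At an unadjusted p under 0.05 the background was 16.4 percent higher and 16.1 percent lower. Chaperones had 2 higher and 8 lower (14.3%) in the embryo of 56 members, with Hspa1b at -27.7 points (adjusted p = 0.0312, and up to 0.121 without 1 library, lost for every embryonic library, both of mTEC1 and mTEC2 replicate 1). Ubiquitin enzymes had 1 higher and 8 lower (12.7%) of 63, oxidative phosphorylation 2 and 6 (10%) of 60, and solute carriers 7 and 14 (10.1%) of 138. Replication-dependent histones had 0 higher and 6 lower (14.6%) of 41 by limma (1 and 15 at an unadjusted p under 0.05), and all 6 lay in the histone cluster of chromosome 13. The H2ac8 and H2bc8 region (chr13:23570747-23571748) had percentiles of 27.2 and 32.8 at E15, 33.1 and 34.7 at E17, 96.5 and 96.1 in mTEC4, 94.4 and 96.6 in mTEC1, and 56.0 and 51.5 in mTEC2. The mTEC2 libraries thus lay between the embryonic and the other day 6 libraries, and the embryo was lower than day 6 by limma (-49.9 points, SE 3.79, adjusted p = 0.00258). Many histone genes are alike in sequence, which makes single loci less certain. DNA replication factors had 1 higher (Mcm10, named after its value was seen, at 42.5 points, adjusted p = 0.0431) and 0 lower of 33 (5 and 0 unadjusted). Zinc finger genes were evenly split, with 14 higher and 16 lower of 209. Counts for the remaining housekeeping classes, higher then lower, were 1 and 3 of 71 for cytosolic ribosomal proteins, 3 and 1 of 50 for mitochondrial ones, 1 and 3 of 45 for initiation factors, 2 and 2 of 32 for aminoacyl-tRNA synthetases, 2 and 2 of 30 for the proteasome, 2 and 4 of 69 for splicing, 3 and 4 of 71 for polymerase and Mediator, and 2 and 2 of 19 for reference genes.

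Of 4 members at epithelial genes, 2 passed the test and both were higher in the embryo, Krt8 and Cdh1. The other 2 did not pass at an unadjusted p under 0.05 by limma either. Over all 9700 regions tested 8.08 percent were higher, and 4 members are too few to set a share beside that. Cdh1, for E-cadherin (chr8:106602982-106603842), had percentiles of 83.6 and 83.3 at E15, 84.8 and 74.5 at E17, 53.6 and 68.1 in mTEC4, 13.6 and 36.9 in mTEC1, and 54.4 and 74.7 in mTEC2. The highest mTEC2 value passed the lowest E17 value, so the ages met at their edges, with a difference of 31.3 points (SE 7.01, limma adjusted p = 0.0286). The call was lost without any single embryonic library or mTEC4 replicate 1 (adjusted p up to 0.101). Relb, a medullary regulator of the alternative NF-kB pathway, was higher by 16.3 points (SE 4.24, adjusted p = 0.0440), but its mTEC2 values of 71.5 and 80.7 lay within the embryonic range, and by fold enrichment it turned to -16.5 (adjusted p = 0.0697). Its call was lost without any single library other than mTEC2 replicate 2 (adjusted p up to 0.153). None of the members at thymic identity genes, thymocyte, macrophage, B cell or erythroid markers passed in either direction by limma, and at an unadjusted p under 0.05 stood 1 identity gene member and the erythroid member, both higher in the embryo.

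Gapdh, a glycolytic enzyme often used as a reference, had 2 members, of which 1 passed the test. The region at chr6:125165422-125165879, 588 bp from the annotated start of the gene, overlapped the Gapdh promoter window (chr6:125165724-125166023, minus strand). Its percentiles were 64.4 and 68.7 at E15, 84.2 and 56.9 at E17, 85.0 and 49.7 in mTEC4, 82.3 and 88.1 in mTEC1, and 90.3 and 66.2 in mTEC2, with overlapping ages (-8.38 points, limma adjusted p = 0.571). The other, at chr6:125166456-125166841, held the annotated start of the gene but lay outside that window. It had 68.9 and 61.5, 60.9 and 70.9 in the embryo against 3.99 and 6.45, 32.0 and 10.3, and 13.9 and 0.361 at day 6. There the ages did not overlap, and the difference was 54.4 points (SE 6.00, adjusted p = 0.00415). Increases were frequent at far gene ends, with 20 of 85 members (23.5%) higher and 2 lower in the embryo, against 272 (4.87%) and 393 (7.04%) of 5582 members at a start. Over all regions tested 8.08 percent were higher, and over the 2886 regions away from gene boundaries 15.0%. The GC and width of members move with this split as well, and their part was not tested.

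Where the matches of the member windows were set beside these calls, the NRF1 site GCATGCGC was among those whose shares differed. It was in 13.2% of windows at members lower in the embryo, 4.11% at those higher and 6.13% at the rest. Members with it were called lower in 14.5% (of 386) and those without in 6.56% (of 4984). Their median percentile was below that of other members in all 4 embryonic libraries, by 7.44 points on average (difference -7.44), and above it in all 6 of day 6, by 3.86. GACGC divided the libraries in the same directions by less, with mean differences of -2.44 in the embryo and 2.20 at day 6. CTCGCGAGA was in 2.79% of windows at lower and 0.685% at higher members. CCAAT was in 49.0% of windows at higher and 37.3% at lower members. Base composition differs between these sets as given above, and its part was not tested.

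Between the groups of the same age no member passed the test of limma (adjusted p under 0.05). The number of all 9700 regions called was 0 for E17 against E15 and for mTEC4 and mTEC1 against the other day 6 fractions, and 2 (0.0206 percent) for mTEC2, neither a member. At an unadjusted p under 0.05 stood 541 members (7.94%) for E17 against E15, 873 (12.8%) for mTEC4, 697 (10.2%) for mTEC1 and 819 (12%) for mTEC2. Over all 9700 regions the shares were 9.3, 13.4, 10.4 and 12.9 percent, so that those of the members were near or below the background. Leaving out mTEC2 replicate 1 gave 30 members for mTEC2, 16 higher and 14 lower, with the lone mTEC2 library assumed to vary like the other groups. Members of smallest p are given as values.

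In E17 against E15, Smad1, which carries Bmp signals to the nucleus, had percentiles of 10.9 and 11.1 at E15 and 61.2 and 61.6 at E17 (50.4 points, limma adjusted p = 0.119). Its 2 pairs did not meet, and the day 6 libraries lay between 5.03 and 37.8. Bcl6b (68.6) and Tmbim1 (67.6) had the larger positive differences, and Slc4a7 (-46.1), Ctdspl (-45.4) and Zfp965 (-43.9) the negative ones. For mTEC4 against mTEC1 and mTEC2, the positive differences were at Unc5d (60.3), Commd3 (55.3) and Wdr60 (46.3) and the negative ones at Doc2b (-59.9), Dhrs3 (-40.7) and Zfp512 (-38.9). Dhrs3 encodes a retinal reductase that limits retinoic acid. Unc5d, a netrin receptor, stood at 64.8 and 76.4 in mTEC4, and at 9.94 and 9.36 in mTEC1 and 3.71 and 18.3 in mTEC2 (adjusted p = 0.0712).

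For mTEC1 the members were Sfxn4 (55.2), Ptk2 (44.6, for focal adhesion kinase) and the region of Praf2 with Wdr45 (32.9), and in the other direction Mif (-69.5), Spdl1 (-45.8) and the region of Alkbh1, Nrp and Slirp (-39.5). Mif, for a cytokine that inhibits macrophage migration, stood at 9.62 and 32.3 in mTEC1, 94.6 and 96.0 in mTEC4 and 87.6 and 83.9 in mTEC2 (adjusted p = 0.196). Its mTEC1 libraries were apart from the others of day 6 and overlapped with the embryonic range of 21.7 to 47.3. For mTEC2 the members were Rnf144a (66.6, a ubiquitin ligase), the region of Plpp5 with Nsd3 (62.5) and Spdl1 (59.1), and in the other direction Ephb3 (-61.1, an ephrin receptor) and H2ac8 with H2bc8 (-42.2). Ephb3 stood at 28.5 and 6.38 in mTEC2 and between 72.6 and 85.5 in the other day 6 libraries, with 70.2 to 79.0 in the embryo (adjusted p = 0.0587). Rnf144a stood at 84.7 and 96.3 in mTEC2 and between 17.7 and 28.7 in the other day 6 libraries (adjusted p = 0.0501).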

How the data were processed

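Accessible chromatin of 10 libraries was analysed from 1 broad peak list per library, deposited by the authors without pooling replicates. The submitters' processing notes name MACS2, Bowtie2, Picard, cutadapt and build mm10 without versions or order. Any shift of read ends by the transposase offset is not stated there. The deposited fold enrichment is a ratio to the caller's background, and the authors' caller also gave every peak its −log10 q and −log10 p. The deposited score was not used. These values belong to their own list and served only to rank regions within it. The lists carry no read counts, so no counting interval is given.

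Groups were taken from the sample titles. Individual peaks carry identifiers in which the sorted fractions are named differently. The assignment of day 6 libraries to mTEC4, mTEC1 and mTEC2 therefore rests on the titles alone, and how the 2 sets of names correspond was not tested. Peaks that overlapped or touched were merged, and gene ends came from RefSeq (GRCm38.p6), mitochondrial genes left out. Percentiles of the strongest −log10 q among the 9700 regions called in all lists were fitted with limma 3.58.1 (R 4.3.3) on 5 group means, with Benjamini-Hochberg adjustment over all 9700 and a threshold of 0.05, and the procedure was tested on simulated data. The members, gene classes, motifs and lists were chosen with earlier results of these data known. Named were the 10 members of highest and 5 of lowest mean percentile, the 10 (embryonic against day 6) or 3 (other contrasts) with the largest difference in each direction or, where too few passed, the smallest p, the 5 widest, 3 narrowest and 5 highest shared members, up to 2 per class, and 15 fixed genes; a few results chosen this way are not reported here. Alternatives were other distances to a gene end, stricter calls, shortened lists, fold in place of −log10 q, normal scores, percentiles among all peaks, 2 ages only, a replicate block and leaving out each library. Tables were made with Python 3.11.15, pandas 2.3.3 and scipy 1.17.1.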

Additional observations from a re-analysis of the deposited data

Results flagged for a closer look

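Chance flags about 1 in 20 groups of libraries, and 5 of 54 groups examined had 1 library far from the others. Among the 6 day 6 libraries, mTEC2 replicate 2, the shortest list, stood apart with 17.7% of its peaks and 29.4% of its called sequence in constitutive boundary regions, the other 5 lying between 7.40% and 10.5% of peaks and between 14.6% and 20.01% of sequence. For single regions, Ccl27b stood apart at a percentile of 80.03 in mTEC1 replicate 1, below the other day 6 libraries, Tcaf2 at 30.4 in mTEC4 replicate 2, above them, and Cdc25a at 50.9 in mTEC2 replicate 2, above them.

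The median percentile of boundary regions minus that of other constitutive regions was 6.69 and 6.38 points in the E15 libraries and -6.03 and -7.98 in the E17 libraries, so every library of one age went one way and every library of the other the opposite way. The E17 mean was 13.5 points lower than the E15 mean (difference -13.5), and this difference was not tested.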

How the results depend on the processing

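With gene ends within 0.5 kb or 2 kb, the boundary share of regions called in all lists was 67.5% or 73.9% and the share of genes 34.6% or 38.2%. When a call needed peaks over at least 50% of a merged region, 507 members remained in place of 6814, with a boundary share of 55.5%, 124 members at 2 or more genes and 2.88% of genes, so the set rests on overlap at any point. With peaks of −log10 q of at least 2 these shares were 75.3% and 27.4%, and with lists shortened to the shortest 74.6% and 29.1%. Leaving out 1 library gave 6795 to 7589 members, 1301 to 1441 at 2 or more genes, a boundary share of 64.5% to 70.1% and 35.9% to 39.7% of genes. The embryonic against day 6 count was 1785 with fold enrichment (629 higher, 1156 lower), 13 with percentiles among all peaks (1 and 12), 877 with normal scores, 600 with 2 ages only and 139 to 963 without 1 library. With fold enrichment 818 of the 834 kept their sign, and in every other setting all 834 did. Same-numbered libraries did not deviate together (10 correlations, -0.0598 to 0.0308), so no pairing by number showed in these ranks. Whether such libraries shared an origin cannot be told from this. A replicate block gave 684 members (286 and 398) and no member in the other contrasts. For mTEC4 1 member passed with percentiles among all peaks, and leaving out 1 library gave 0 to 30 for mTEC2 and 0 for the other contrasts between groups. Of 37 named regions called in embryonic against day 6, 34 lost the call with percentiles among all peaks, 13 with 2 ages only, 6 with normal scores, 3 with the block and 2 with fold, and Relb reversed with fold, to -16.5. The causes of these changes were not tested, except that fewer samples enter when a library is left out. The lists carry no depth, so no limit from depth can be given.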
